A study of Homo sapiens with 8 samples.

Results

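The 46 genes described here encode enzymes that add methyl groups to histone lysine, protein arginine, DNA or mRNA adenosine, together with the enzymes that remove them from histone lysine. They were listed by symbol for their enzyme class, and comprised 22 lysine methyltransferases, 7 arginine methyltransferases, 3 DNA methyltransferases, 3 subunits of the m6A writer and 11 lysine demethylases. Of the 46, 45 were listed in at least 1 library, out of 11740 genes with a symbol listed anywhere in the series, and KMT2C was listed in none. Ribosome-protected fragments were sequenced from HEK293T cells, a human embryonic kidney line carrying the SV40 large T antigen, in 4 media. The media were amino acid-sufficient (Suff), or starved overnight of arginine (Arg-), leucine (Leu-) or methionine (Met-), all made from the same custom DMEM with dialyzed serum. Each medium was profiled once with cycloheximide, a drug that stalls elongating ribosomes, given to the cells before lysis and once without it, so that 8 libraries formed 2 series of 4. There was 1 library per condition and therefore no replicate error, and no test was run. The series differ in cycloheximide and in their listing floor, and the tables without cycloheximide are labelled as freed of duplicate reads. The series were not used as replicates of each other. The intervals given are 95% exact binomial or Poisson intervals on read numbers, and they cover counting error only.

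Methyltransferases of all these classes draw their methyl group from S-adenosylmethionine, which the cell makes from methionine and ATP. After the transfer, S-adenosylhomocysteine remains and can inhibit the same enzymes. Lysine demethylases do not use this cofactor: KDM1A oxidises the methyl group with FAD, and the JmjC enzymes do so with iron and 2-oxoglutarate. The m6A writer methylates adenosines in mRNA and works as a METTL3 and METTL14 pair held in the nucleus by WTAP.

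The deposited value was RPKM, the footprints on a coding sequence scaled to coding length and library depth, so a level is a share of all footprints in its library. No RNA-seq library was part of the comparison, so a change in mRNA level and a change in ribosomes per mRNA cannot be told apart. Read numbers recovered from the RPKM values gave 1302523 to 3139745 reads on coding sequences in the series without cycloheximide, and 538222 to 6434043 in the series with it. The lowest listed transcript had 5 reads without cycloheximide and 64 with it. Of the markers checked for the cell line, VIM was listed in 8 libraries, LIN28B in 7 and PAX2 in 2. Of 7 markers of other cell types, 6 were listed in none, and COL1A1 was listed in 5 libraries at 1.59 to 20.2 RPKM. Of 6 genes of the ATF4 response to amino acid starvation, ATF4, ASNS, TRIB3 and SESN2 were at least 2-fold above Suff in each of the 3 starved media without cycloheximide.

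Coding starts are shown for WTAP, METTL3 and PRMT1, because each level is tied to a transcript: WTAP had the same one in every library, while the series used different transcripts for METTL3 and PRMT1. The transcript also differed between the series for SETD1B, SUV39H2, EZH2, NSD2, DNMT1, KDM2B, KDM5B and KDM5C. The first 27 coding bases are written 5′ to 3′ from GRCh38, with the start codon, which also encodes methionine, in capitals.
WTAP, chr6:159736266-159755611, plus strand, listed in all 8 libraries: ATGaccaacgaagaacctcttcccaag
METTL3, chr14:21498258-21511223, minus strand, without cycloheximide: ATGtcggacacgtggagctctatccag
PRMT1, chr19:49677281-49688245, plus strand, without cycloheximide: ATGgcggcagccgaggccgcgaactgc
PRMT1, chr19:49680535-49688245, plus strand, highest with cycloheximide: ATGacatccaaagattactactttgac
The coding sequences of both PRMT1 transcripts end at the same base, and that of the second starts further into the gene, encoding 325 residues in place of 371. For METTL3, the transcript listed with cycloheximide has the same coding start and 258 residues in place of 580.

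In Suff without cycloheximide, the 43 listed members spanned 2.51 RPKM in KMT2A to 544 RPKM in PRMT1. Their median was 15.9 RPKM, beside 17.5 RPKM over all listed genes. By class, the median level per length was 60.1 RPKM for arginine methyltransferases, 33.4 for the m6A writer, 16.5 for DNA methyltransferases, 11.7 for lysine methyltransferases and 11.6 for demethylases. The highest lysine methyltransferase was KMT5A, which places the single methyl group on histone H4 lysine, at 76.7 RPKM, and the highest demethylase was KDM1A at 62.3 RPKM.

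Among the m6A writer subunits, WTAP was high in Met- and METTL3 was not. WTAP, the regulatory subunit, stood without cycloheximide at 114 RPKM in Suff, 117 in Arg-, 134 in Leu- and 478 in Met-. The Met- library alone was high, 4.19-fold above Suff (3.71 to 4.73). Only 1.53% of all genes compared had as high a ratio. Set directly against the other starved libraries, WTAP in Met- was 3.58-fold above Leu- (3.09 to 4.16) and 4.08-fold above Arg- (3.51 to 4.76). METTL14, the RNA-binding partner, was 16.03 RPKM in Suff, 27.6 in Arg-, 22.9 in Leu- and 38.1 in Met-, which put Met- 2.38-fold above Suff (1.67 to 3.37). METTL3, the catalytic subunit, was 33.4 RPKM in Suff, 33.8 in Arg-, 27.6 in Leu- and 33.5 in Met-, with a Met- to Suff fold of 1.001 (0.756 to 1.31). As low a ratio was found in 33.9% of all genes, whose own median lay above Suff. The counting intervals of the 3 Met- folds did not overlap.

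**Figure D1:**
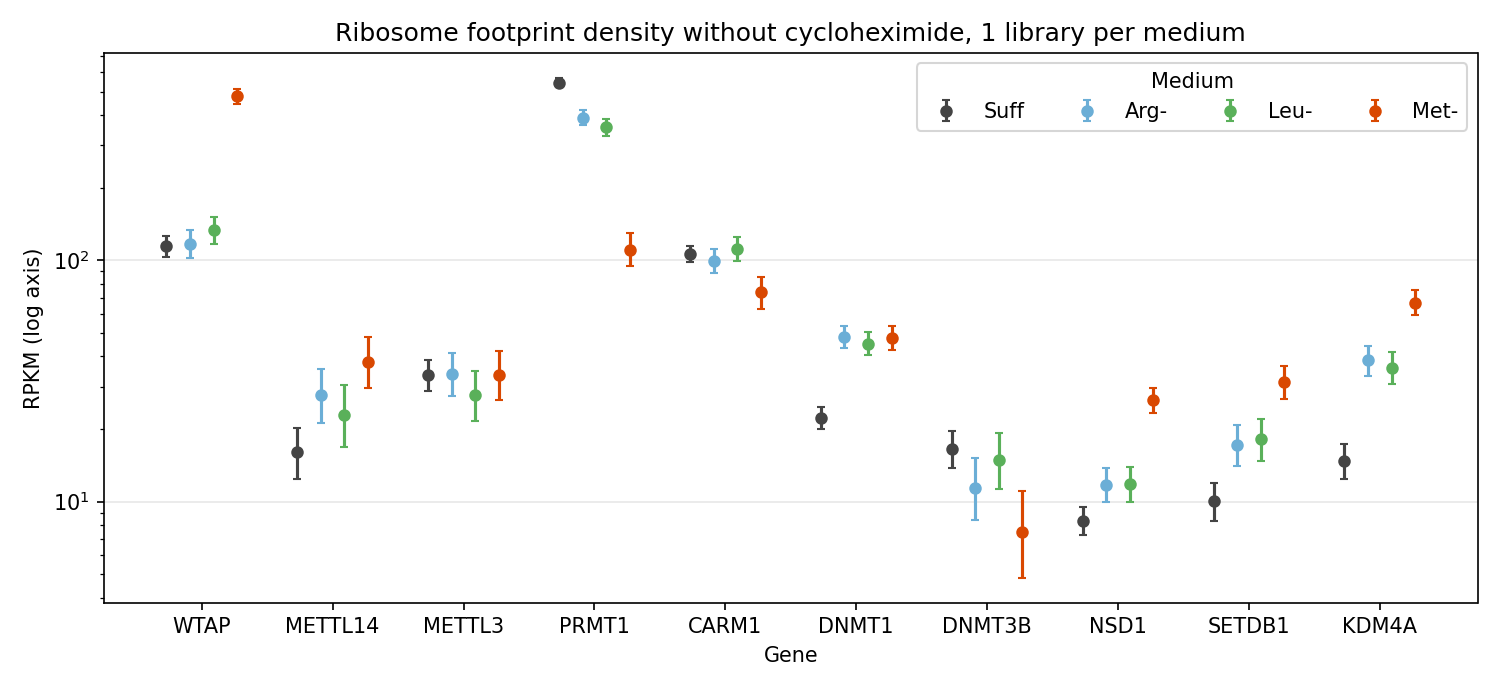
RPKM on a log axis for 10 members in Suff, Arg-, Leu- and Met- without cycloheximide, 1 point per library with its 95% Poisson counting interval. WTAP stands at 478 RPKM and PRMT1 at 111 RPKM in Met-, while METTL3 lies between 27.6 and 33.8 RPKM in all 4 libraries.

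Other proteins of the m6A pathway were taken as lists of partner subunits and readers. Of the accessory writer proteins, RBM15, which brings the writer to its RNAs, was 22.0 RPKM in Suff, 29.4 in Arg-, 33.2 in Leu- and 158 in Met-, a Met- fold of 7.16 (6.10 to 8.44). CBLL1, a RING-domain writer component, was 12.7, 37.0, 23.1 and 70.2 RPKM in the same order, and VIRMA, the scaffold, 7.09, 10.96, 7.98 and 15.8 RPKM. ZC3H13, which helps retain the writer in the nucleus, was 1.63-fold above Suff in Met- (1.22 to 2.16). All 5 m6A readers of the YTH family were compared, and 4 of them were at least 2-fold higher in Met-, where 20.3% of all genes were. YTHDF2, which directs m6A-bearing mRNA to decay, was 75.4 RPKM in Suff, 137 in Arg-, 122 in Leu- and 476 in Met-. YTHDC2 was the fifth, with a log2 ratio of 0.90. The m6A demethylases had Met- folds of 2.05 for FTO (1.66 to 2.53) and 1.56 for ALKBH5 (1.28 to 1.88), with overlapping intervals. All these values are from the series without cycloheximide. With cycloheximide no reader could be compared in Met-. YTHDF2 was there 28.1 RPKM in Suff, 84.5 in Arg- and 56.8 in Leu-, and it was not listed in Met-. If absence means fewer than 64 reads, it sets a ceiling on the Met- level of YTHDF2, which was not worked out here. The high Met- level of YTHDF2 thus rests on the series without cycloheximide alone.

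Arginine methyltransferases held the lowest ratio of any member. PRMT1, which makes most of the asymmetric dimethylarginine in human cells, was 544 RPKM in Suff, 390 in Arg-, 356 in Leu- and 111 in Met- without cycloheximide. All 3 starved libraries were below Suff and Met- was the lowest of them. The Met- level was 4.91-fold below Suff (4.18 to 5.80), and only 0.207% of all genes had as low a ratio. Met- was also 3.21-fold below Leu- (2.69 to 3.85) and 3.52-fold below Arg- (2.96 to 4.21), whereas PRMT1 in Arg- and Leu- was 1.39-fold (1.28 to 1.52) and 1.53-fold (1.39 to 1.68) below Suff.

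No other arginine methyltransferase was 2-fold below Suff in Met-. CARM1, which methylates histone H3 arginine at active genes, was 106 RPKM in Suff, 99.2 in Arg-, 112 in Leu- and 73.5 in Met-, the last 1.45-fold below Suff (1.22 to 1.72). PRMT5, the main source of symmetric dimethylarginine, was 115 RPKM in Suff, 184 in Arg-, 170 in Leu- and 158 in Met-, and thus above Suff in each starved library. Of its partners, WDR77 was 434, 283, 293 and 325 RPKM in that order, and CLNS1A, which presents spliceosomal Sm proteins to it, was 501, 301, 371 and 186 RPKM. In Arg-, PRMT2 stood apart from its class at 16.2 RPKM beside 47.7 in Suff, 48.7 in Leu- and 34.2 in Met-, a 2.94-fold lower level than Suff (2.04 to 4.37). PRMT7, which leaves single methyl groups on arginine, lay on the other side of Suff in Arg-, at 38.8 RPKM beside 17.0 in Suff, a fold of 2.28 (1.76 to 2.97), with 32.5 in Leu- and 24.4 in Met-. PRMT6 was highest in Met-, at 94.6 RPKM beside 60.1 in Suff. PRMT3, a cytosolic enzyme of ribosomal protein, lay between 41.5 and 56.1 RPKM in all 4 libraries.

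The 3 DNA methyltransferases did not follow one pattern. DNMT1, which copies methylation onto the new DNA strand, was 22.2 RPKM in Suff, 48.2 in Arg-, 45.1 in Leu- and 47.8 in Met-. The starved libraries lay close together and all above Suff, by 2.17-fold (1.87 to 2.51), 2.03-fold (1.74 to 2.37) and 2.15-fold (1.84 to 2.52). They share the Suff library, so these are not 3 independent differences. Its partner UHRF1, which guides DNMT1 to replicated DNA, was 85.0 RPKM in Suff and 161, 133 and 128 RPKM in Arg-, Leu- and Met-. DNMT3B, which methylates new sites, was 16.5 RPKM in Suff, 11.4 in Arg-, 14.9 in Leu- and 7.49 in Met-, the last 2.21-fold below Suff (1.43 to 3.53). DNMT3A, the other enzyme for new sites, was 4.65, 7.71, 7.32 and 6.17 RPKM in the same order, and in Met- it had too few reads for the comparison.

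Of the 21 lysine methyltransferases compared in Met- without cycloheximide, 4 were at least 2-fold above Suff on the log2 ratio of RPKM + 1 and none was 2-fold below. Among all genes 20.3% and 5.20% were, so the count is near the share of genes at large. Their median coding length was 3897 bases, and 35.4% of all genes with at least 3195 coding bases were 2-fold above Suff. NSD1, which dimethylates histone H3 lysine in gene bodies, was 8.35 RPKM in Suff, 11.7 in Arg-, 11.8 in Leu- and 26.4 in Met-, a fold of 3.16 (2.63 to 3.80). The other 3 place silencing marks on histone H3. SETDB1, which silences retroelements, was 10.0, 17.1, 18.1 and 31.3 RPKM in Suff, Arg-, Leu- and Met-, with a Met- fold of 3.12 (2.45 to 3.99). EHMT1 was 12.3, 15.9, 19.2 and 33.1 RPKM, with a Met- fold of 2.68 (2.14 to 3.36). SUV39H1, the enzyme of constitutive heterochromatin, was 43.3, 27.3, 38.9 and 91.1 RPKM, lowest in Arg- and highest in Met-. Its Met- level was 2.10-fold above Suff (1.68 to 2.63) and 3.33-fold above Arg- (2.44 to 4.62). With cycloheximide SUV39H1 was 23.7 RPKM in Suff, 27.1 in Arg- and 32.3 in Leu-, so Arg- and Leu- lay above Suff there, and it was not listed in Met-.

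Close relatives of these enzymes differed from them. EHMT2, the partner of EHMT1 in a heterodimer, was 22.0 RPKM in Suff, 28.6 in Arg-, 30.6 in Leu- and 22.0 in Met-. SUV39H2 had a Met- log2 ratio of 0.52. NSD2 and NSD3, the paralogs of NSD1, had Met- log2 ratios of 0.43 and 0.30. SETD2, which trimethylates histone H3 lysine behind elongating polymerase, lay just under the 2-fold line, with 5.55 RPKM in Suff and 12.1 in Met-. EZH2, the catalytic subunit of Polycomb repressive complex, was 42.9 RPKM in Suff and higher in each starved library, at 68.5, 78.2 and 62.3 RPKM in Arg-, Leu- and Met-, while its paralog EZH1 was 7.81, 9.41, 9.53 and 6.16 RPKM. KMT5A showed almost one level, between 75.1 and 76.7 RPKM in all 4 libraries. KMT2A, KMT2B, KMT2D, SETD1A and SETD1B, which methylate histone H3 lysine at promoters and enhancers, had Met- log2 ratios from 0.13 in KMT2A to 0.84 in KMT2D.

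Of the 9 demethylases compared, 3 were at least 2-fold above Suff in Met- and none was 2-fold below, beside 20.3% and 5.20% of all genes. Most of the 9 are long, and 35.4% of all genes with at least 3195 coding bases were 2-fold above Suff. KDM4A, a JmjC enzyme that acts on methylated histone H3 lysines, had the highest ratio of any member in Arg-, Leu- and Met- without cycloheximide. It was 14.8 RPKM in Suff, 38.5 in Arg-, 35.8 in Leu- and 66.8 in Met-, with folds of 2.61 (2.10 to 3.25), 2.42 (1.93 to 3.04) and 4.53 (3.70 to 5.57). Its paralog KDM4B was 8.35, 14.1, 14.0 and 6.79 RPKM, above Suff in Arg- and Leu- but not in Met-. KDM5B and KDM5C remove methyl groups from histone H3 at promoters. KDM5B was 6.31 RPKM in Suff, 9.03 in Arg-, 6.34 in Leu- and 17.5 in Met-, and KDM5C was 27.1, 30.9, 53.5 and 62.5 RPKM. KDM1A was 62.3, 76.5, 74.1 and 77.9 RPKM, with the starved libraries close together. KDM2B, a JmjC enzyme that also recruits Polycomb to unmethylated CpG islands, was 12.5 RPKM in Suff, 9.60 in Arg-, 8.99 in Leu- and 20.7 in Met-.

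**Figure D2:**
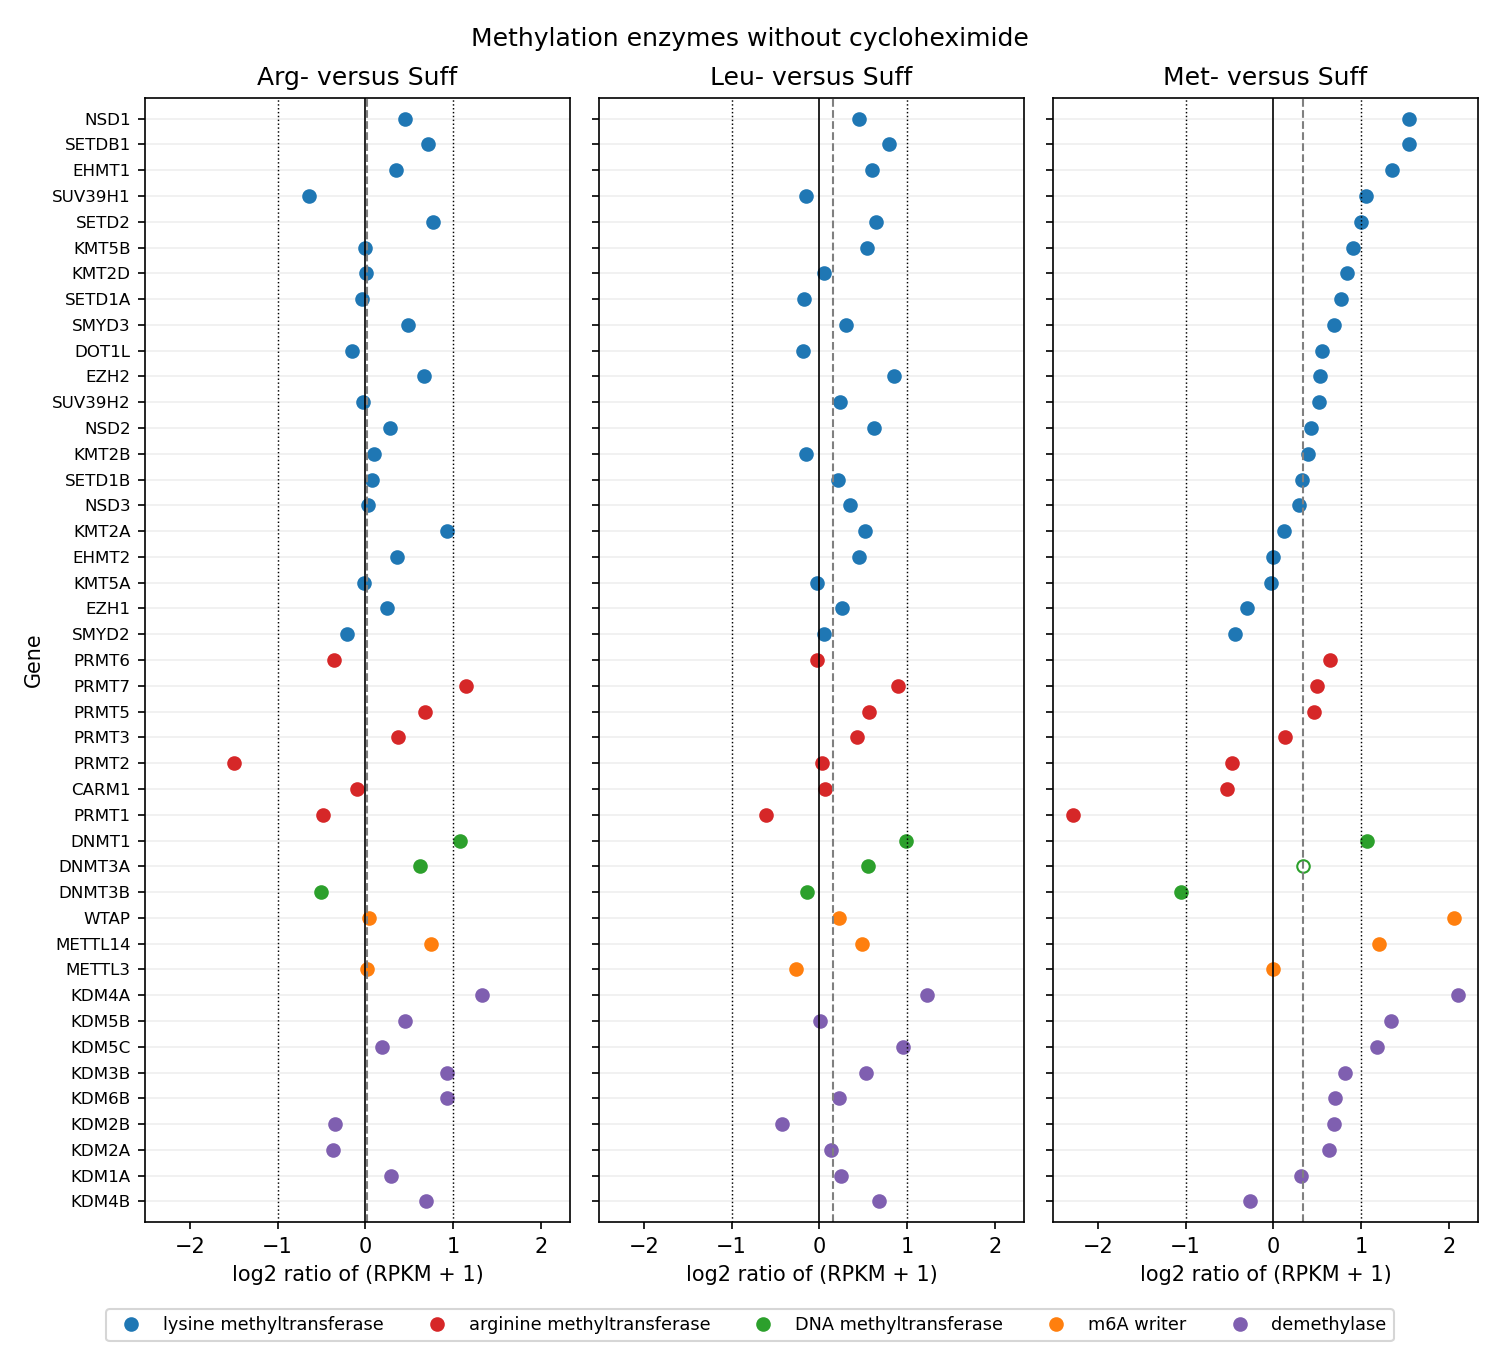
log2 ratio of (RPKM + 1) in each starved library over Suff for the 43 members listed without cycloheximide, coloured by class and ordered within class by the Met- ratio. Dotted lines mark 2-fold, the dashed line marks the median of all genes (0.02, 0.16 and 0.33), and the open point is DNMT3A in Met-, which had too few reads.

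A gene was compared where both libraries listed it with a mean of at least 32 reads, and called at a 2-fold difference of RPKM + 1. In Met- without cycloheximide 10 of 42 members were called higher, beside 20.3% of all genes, and 2 were called lower, beside 5.20% of all genes. The called members were KDM4A, WTAP, NSD1, SETDB1, EHMT1, KDM5B, METTL14, KDM5C, DNMT1 and SUV39H1 on the high side and PRMT1 and DNMT3B on the low side. The median log2 ratio was 0.54 for the members and 0.33 for all genes, and 27 of 42 members lay above the latter. Relative to that shift of all genes, 6 members stayed called higher, namely KDM4A, WTAP, NSD1, SETDB1, EHMT1 and KDM5B. No share of all genes is given at this centred cut, so the count is not read as a result about the members. In Arg- 3 of 43 were called higher beside 8.28% of all genes, namely KDM4A, PRMT7 and DNMT1, and PRMT2 alone was called lower beside 5.52%. In Leu- KDM4A alone was called higher beside 6.40%, and none of 43 was called lower beside 1.93%. DNMT1 in Leu- lay just under the line, at a log2 ratio of 0.99. The median log2 ratios were 0.24 in Arg- and 0.26 in Leu-, where those of all genes were 0.02 and 0.16.

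In Met- without cycloheximide the median log2 ratio was 1.20 for the m6A writer, 0.71 for demethylases, 0.53 for lysine methyltransferases and 0.14 for arginine methyltransferases. Arginine methyltransferases lay above the median of all genes in 3 of 7 cases, lysine methyltransferases in 14 of 21 and demethylases in 7 of 9. The median of the arginine methyltransferases lay below the 0.33 of all genes, so that relative to all genes it was negative. The 2 DNA methyltransferases compared lay on opposite sides, DNMT1 at 1.07 and DNMT3B at -1.05. Coding length also differed, with medians of 1596 bases for arginine methyltransferases, 3897 for lysine methyltransferases and 4011 for demethylases. All genes of at least 3195 coding bases had a median log2 ratio of 0.78, and shorter ones 0.27. The medians of lysine methyltransferases and demethylases thus lay above that of all genes but below that of long genes. Class sizes were small and no test was run, so the class medians are a description.

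Starved libraries were also set against each other, which leaves Suff out. Between Met- and Leu- without cycloheximide, 5 of 41 members were called higher in Met-, beside 9.90% of all genes, and these were WTAP, KDM5B, SUV39H1, KDM2B and NSD1. PRMT1 was called lower, beside 4.29%. KDM4B was 2.06-fold lower in RPKM (1.33 to 3.27), with a log2 ratio of -0.94. Between Met- and Arg-, 8 of 41 were called higher, beside 14.4%, and PRMT1 was again the member called lower, beside 3.15%. The 8 were WTAP, SUV39H1, NSD1, KDM2B, PRMT2, EHMT1, KDM2A and PRMT6. Centring on all genes gave 2 higher and 3 lower calls against Arg- and 3 of each against Leu-. No share of all genes is given at that cut, so nothing is read from these centred counts. Arginine methyltransferases lay above the median of all genes in 1 of 7 cases against Leu- and in 2 of 7 against Arg-. The 2 comparisons share the Met- library.

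The members encode long proteins, and length moved with the ratios. Their median coding length was 3195 bases beside 1431 over all listed genes, and 33 of 43 were longer than that. Across all genes, coding length and the Met- log2 ratio without cycloheximide had a Spearman correlation of 0.45 over 7722 genes, and 0.31 over the 42 members, where genes share libraries and are not independent. Among genes of at least 3195 coding bases the median log2 ratio was 0.78 for all genes and 0.74 for the 22 members, and 35.4% of all genes were called higher, beside 7 of 22 members. Among shorter genes it was 0.27 for all and 0.39 for 20 members. WTAP, with 1191 coding bases, and KDM4A stood well above genes of their length, and PRMT1, with 1116, stood below them. The part of length in the ratios was not tested.

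**Figure D3:**
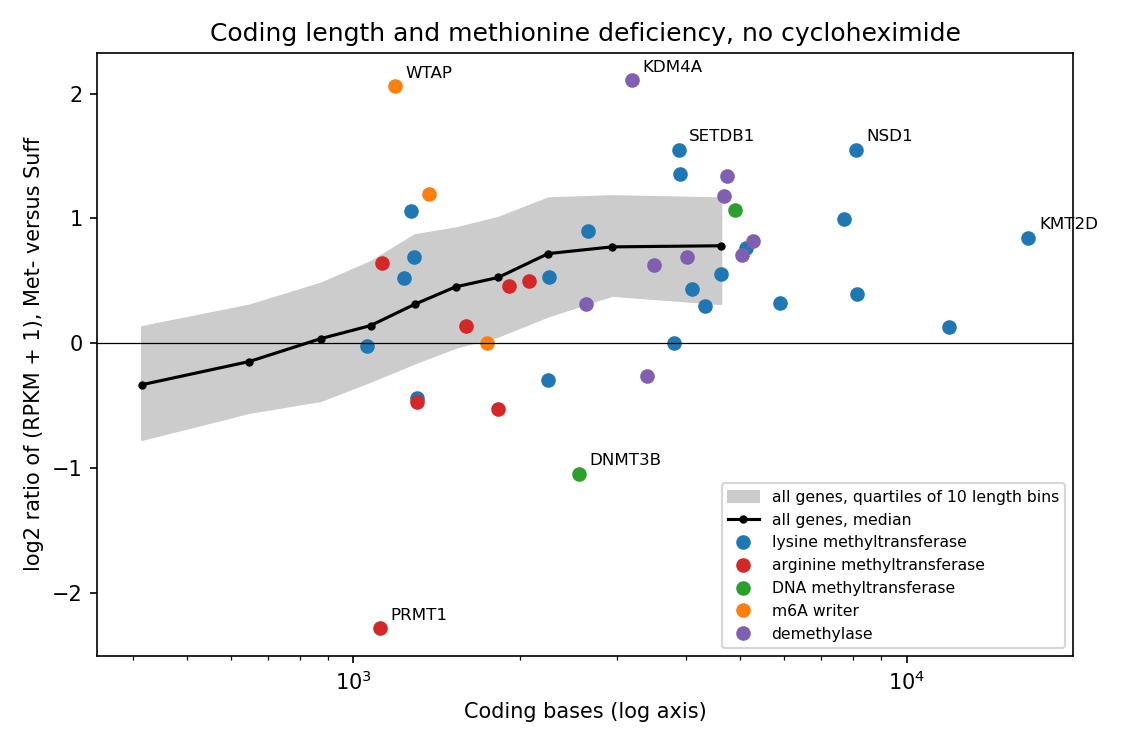
log2 ratio of (RPKM + 1), Met- over Suff without cycloheximide, against coding bases on a log axis for 42 members. The line and band are the median and quartiles of all genes in 10 length bins. Members outside the band include WTAP, KDM4A and SETDB1 above it and PRMT1, DNMT3B and CARM1 below it. The band ends at 4615.5 bases, and NSD1, with 8091, lies beyond its end.

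Amino acid content was taken from the same transcripts. Methionine made up a median of 1.99% of the members' residues, beside 2.13% over all genes, and 2.64% in arginine methyltransferases, where PRMT1 reached 3.50%. Between methionine content and the Met- log2 ratio the Spearman correlation was -0.28 over the 42 members and -0.08 over all genes. Leucine was scarcer in members than in genes at large, with a median of 7.92% beside 9.76%, and 8 of 43 members lay above the latter. Between leucine content and the Leu- log2 ratio it was -0.31 over the members and -0.01 over all genes, but leucine content had -0.24 over the members in Arg- as well. Between arginine content and the Arg- log2 ratio it was 0.0050 over the members.

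With cycloheximide, fewer members could be compared, since listing began at 64 reads. Suff listed 31 members, Arg- 45, Leu- 44 and Met- 13. In Arg- 8 of 31 members were called higher beside 16.1% of all genes, and PRMT6 was called lower beside 19.1%. PRMT5 led at 39.9 RPKM in Suff, 191 in Arg-, 101 in Leu- and 89.4 in Met-, with an Arg- fold of 4.80 (4.14 to 5.59). The others called higher in Arg- were KDM1A, EZH2, KDM5C, PRMT3, SMYD3, EHMT2 and DNMT1. In Leu- 4 of 31 were called higher beside 11.5%, namely KDM5C, EZH2, PRMT5 and EHMT2, and SMYD2 was called lower beside 6.83%. EZH2 was 27.3 RPKM in Suff, where it had 70 reads, 75.5 in Arg- and 72.3 in Leu-, and it was not listed in Met-. These comparisons share the same Suff library. In it PRMT5 was lower than in Suff without cycloheximide (115 RPKM), and PRMT6 was higher, at 96.9 beside 60.1 RPKM.

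In Met- with cycloheximide 13 members were compared, and 46.2% of all genes were called higher and 9.73% lower. The members called higher were KDM5C, EHMT2, KDM2B, DOT1L, PRMT6, EHMT1, DNMT1, SETD1A, PRMT5 and WTAP, and PRMT1 was called lower. That library was the shallowest, the median log2 ratio of all genes in it was 0.88, and only genes with at least 64 reads there could enter, so a high level in Met- favoured entry and nothing is read from how many were called. Centred on all genes, 3 members were called higher and 2 lower, with no share of all genes given at that cut. PRMT1 was 562 RPKM in Suff, 695 in Arg-, 537 in Leu- and 133 in Met-, so Met- was again the low library, 4.22-fold below Suff (3.32 to 5.44), while Arg- was above Suff. WTAP was 82.5, 103, 137 and 174 RPKM in the same order, a Met- fold of 2.10 (1.67 to 2.64), and 44.9% of all genes had as high a ratio. KDM5C was 6.99, 20.6, 23.9 and 57.0 RPKM, a Met- fold of 8.16 (6.08 to 11.03). Its Suff value rested on 74 reads, near the listing floor. That value lay well below the 27.1 RPKM of Suff without cycloheximide, where another transcript was used. DNMT1 was 12.4, 27.3, 18.4 and 37.6 RPKM, above Suff in each starved library as it was without cycloheximide. PRMT6 was 96.9, 36.4, 57.6 and 302 RPKM, the lowest level in Arg- and the highest in Met-. The 18 members listed in Suff and not in Met- all had Suff levels below what 64 reads would give in Met-, so their absence sets no direction. If absence means fewer than 64 reads, it does set a ceiling on the Met- level. For NSD1, at 8.02 RPKM in Suff, that ceiling lay under 2-fold above Suff, unlike its level without cycloheximide. For SUV39H1, at 23.7 RPKM in Suff, it lay above 2-fold.

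Members absent from Suff but listed in a starved library numbered 14 in Arg- and 13 in Leu-, the deeper libraries, so their direction is set by the listing and no count is read from it. If absence means fewer than 64 reads, KDM4A was at least 3.21-fold higher in Arg- (25.1 RPKM) and at least 2.31-fold higher in Leu- (18.1 RPKM).

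The series with and without cycloheximide share no library, so their signs can be set against each other. In Arg- 25 of 31 members had the same sign in both series, 80.6%, beside 71.3% of all genes. In Leu- it was 21 of 31, 67.7%, beside 70.5%. No share is given for Met-, where entry favoured high levels with cycloheximide. EHMT1, DNMT1, WTAP and KDM5C were called higher and PRMT1 was called lower in Met- in both series. Of all genes, 20.3% were called higher in Met- without cycloheximide and 46.2% with it, and 5.20% and 9.73% lower. Because entry favoured high levels, the shared higher calls in Met- are not read as agreement between the series. In Arg-, DNMT1 was the member called higher in both, where 8.28% and 16.1% of all genes were called higher. EHMT2 differed between the series in Met-, with 22.0 RPKM in both media without cycloheximide and 41.1 RPKM beside 6.58 in Suff with it. That Suff value rested on 64 reads, the listing floor. Arg- and Leu- were also above it with cycloheximide, at 15.4 and 15.1 RPKM.

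**Figure D4:**
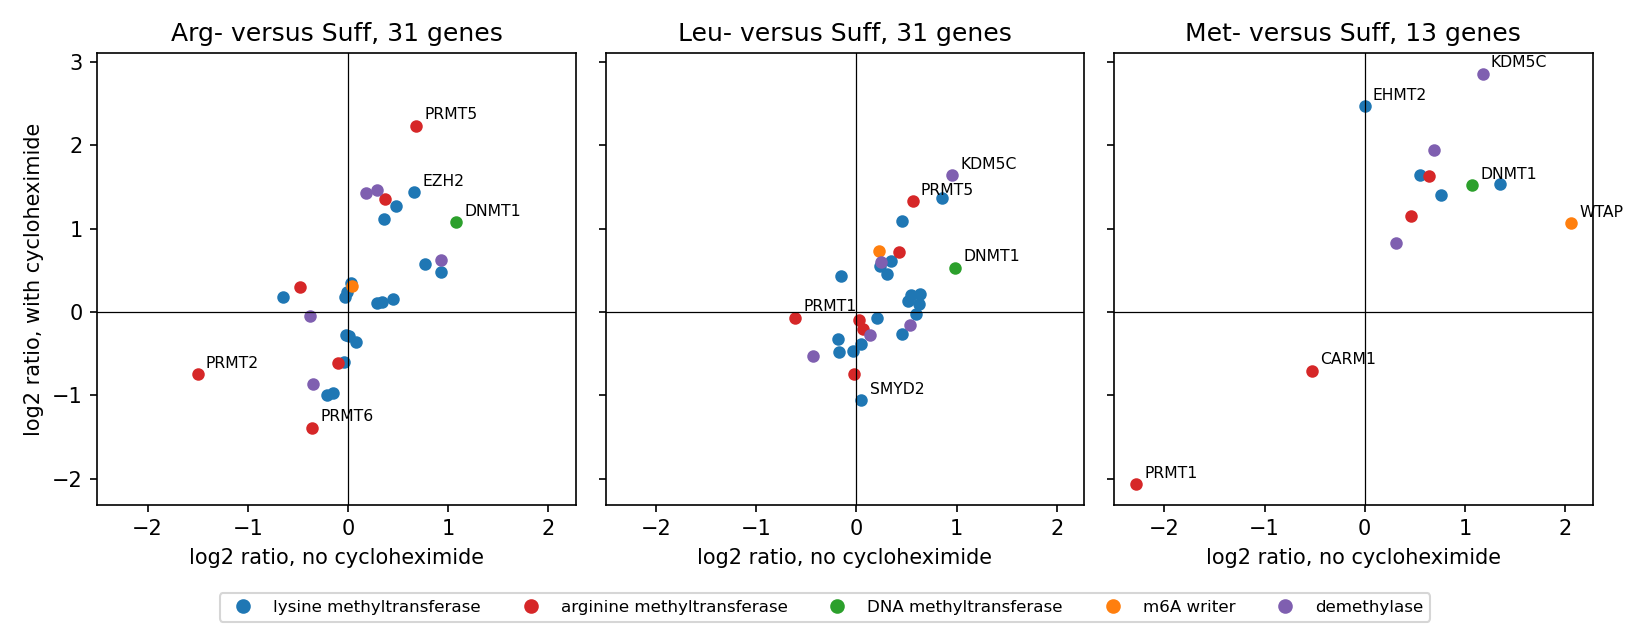
log2 ratio of (RPKM + 1) over Suff with cycloheximide against that without it, for the members compared in both series in Arg- (31), Leu- (31) and Met- (13). PRMT1 lies at the lower left in Met-, and EHMT2 lies near 0 on the horizontal axis at 2.47 on the vertical one.

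Some genes that supply and recycle the methyl donor were set beside the members. MAT2A, which makes S-adenosylmethionine, was 249 RPKM in Suff, 85.7 in Arg-, 125 in Leu- and 1019 in Met- without cycloheximide. The Met- level was 4.10-fold above Suff (3.77 to 4.45), while Arg- was 2.90-fold (2.46 to 3.45) and Leu- 1.99-fold (1.72 to 2.32) below it. METTL16, an m6A enzyme that acts on MAT2A mRNA, was 33.6, 19.8, 19.4 and 70.9 RPKM in the same order, so its levels were ordered like those of MAT2A apart from Arg- and Leu-. MTRR, which reactivates methionine synthase, was 14.8, 21.7, 19.6 and 38.4 RPKM, a Met- fold of 2.60 (1.97 to 3.44). AHCY, which hydrolyses S-adenosylhomocysteine, was 383, 353, 321 and 389 RPKM without cycloheximide and 64.8, 292, 254 and 463 RPKM with it. In the latter series the starved libraries were 4.51-, 3.92- and 7.15-fold above Suff. These folds share the same Suff library, where AHCY was far lower than in Suff without cycloheximide, so they are not independent rises. With cycloheximide, MAT2A was 63.3 RPKM in Suff, 84.6 in Arg-, 83.7 in Leu- and 728 in Met-, high in Met- again but no longer below Suff in Arg- and Leu-.

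Of 20 partner subunits of the members, 19 were compared in Met- without cycloheximide. JARID2, RBBP5, VIRMA, RBM15, RBM15B and CBLL1 were called higher, beside 20.3% of all genes, and CLNS1A lower, beside 5.20%. Of 21 other methylation enzymes, 17 were compared and 6 were called higher beside 20.3% of all genes, namely KMT5C, KMT2E, PRMT9, KDM7A, PHF8 and FTO, and none was called lower. KDM7A, a JmjC demethylase of silencing marks, was 6.99 RPKM in Suff, 15.2 in Arg-, 14.4 in Leu- and 38.6 in Met-, above Suff in each starved library.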

How the data were processed

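RPKM per transcript was deposited by the authors, 1 table per library, after adapter trimming (cutadapt is named in the submitters' processing notes), length selection and unique alignment to the human transcriptome (GRCh38) with Bowtie allowing no mismatch. The counting program and the annotation release are not given in the sources used here. The tables without cycloheximide are labelled as freed of duplicate reads, and unique alignment can lower genes with near-identical copies. Transcripts were named through GENCODE 44, where 96.7 to 97.1% matched, and the highest transcript represented each gene. Read numbers were recovered from RPKM steps and coding length, with 97.2 to 97.4% of values within 0.01 of a whole read. Genes listed in both libraries with a mean of at least 32 reads were compared as the log2 ratio of RPKM + 1, and 2-fold was called. Folds in the text are RPKM ratios, so a gene near 2-fold can be on either side. Members, gene lists and named genes (extremes of each comparison, highest of each class, whole small classes) were chosen with earlier results of these data known, and other genes were named after their values were seen. The procedure was tested on simulated data. Python 3.11.15, pandas 2.3.3 and scipy 1.17.1 were used. Other pseudocounts, filters, transcript rules and centring were tried, and using the same transcript in both libraries was added after seeing the data.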

Additional observations from a re-analysis of the deposited data

How the results depend on the processing

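No paired analysis was run. The labels carry no replicate numbers. The series with and without cycloheximide share the media, but they were handled differently and were not fitted as blocks. Of 168 summary values under other settings, 142 kept within 1.5 times the count or within the spread allowed to the median, and 26 moved. Of 809 recomputed log2 ratios of the genes named by rule, 27 moved, all by centring, and none that was past 2-fold changed sign. With a pseudocount of 0.1, members called higher went to 6 in Arg- and 2 in Leu- without cycloheximide, those called lower went to 3 in Arg- with it, and to 2 for Met- against both Leu- and Arg-. With a mean of at least 100 reads, 1 member was called lower in Met-, and 3 and 5 were called higher against Leu- and Arg-. Centring on all genes gave a median of 0.21 and 6 higher calls in Met- without cycloheximide, and 0.64 with 3 higher and 2 lower calls with it. Centred, Met- against Leu- had 3 higher and 3 lower calls, and Met- against Arg- had 2 and 3, with a median of -0.043. Counting genes not listed as 0, with no filter, gave member medians of 0.62, 0.54 and -2.59 in Arg-, Leu- and Met- with cycloheximide. Those of all genes were 0.55, 0.74 and -4.38. There were 22 and 17 higher calls in Arg- and Leu-, and 19 lower calls in Met-. The same with a mean RPKM of at least 10 gave a median of 0.064 and 10 lower calls in Met-, where the median of all genes was -4.84. These shifts follow from setting genes under the listing floor to 0. Summing transcripts or keeping the same transcript moved no summary value. For the counts under other settings no share of all genes called is given, so they are not read as results about the members. Depth limits the members most in Met- with cycloheximide, where 13 were listed, and 1 library per condition leaves the spread between cultures unknown.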
